A study of Drosophila melanogaster with 4 samples.

Results

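The genes described here are 9 genes of the endoplasmic reticulum in *Drosophila melanogaster*, namely the chaperones *Hsc70-3* and *Gp93*, the disulfide isomerases *Pdi* and *ERp60*, the lectin *Calr*, the channel subunits *Sec61alpha* and *Sec61beta*, the channel partner *SsRbeta* and the stress regulator *Xbp1*. They were chosen by name, through the gene symbols annotated for the array's probes, with earlier results of these data known. A probe was found for 6 of the 9, among 12058 genes with a probe, and *Calr*, *SsRbeta* and *Xbp1* had none in the annotation used. Each of these 6 genes was read by 1 probe, and 5 of them had a value in both mutant extractions and could be tested.

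RNA of whole mutant larvae, genotype w1118;+;ash2I1, was compared with RNA of isogenic wild-type larvae, genotype w1118;+;+, on 4 two-colour arrays. Both were larvae of the third instar raised at 25 °C on food with 0.025% bromophenol blue, which stages them by the blue gut, and per the methods wandering larvae without the Tubby marker of the balancer were picked early in the instar. The mutant RNA came from 2 extractions with 2 arrays each (arrays 1 and 2, then arrays 3 and 4), labelled with Cy5, and 1 wild-type pool labelled with Cy3 was the reference on all of them. The gene *ash2* is a member of the trithorax group, whose proteins keep genes transcribed through chromatin, and the question was which genes change when it is mutated. The mutant stock had its X, Y and chromosome 2 replaced by those of the reference line. Its chromosome 3, which carries the mutation and also *Gp93* and *Pdi*, was kept. The number of larvae per extraction was not given in the sources used here.

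Secreted and membrane proteins enter the endoplasmic reticulum through the Sec61 channel, fold there with the help of chaperones, disulfide isomerases and sugar-binding lectins, and leave in coated vesicles. When unfolded proteins build up, the unfolded protein response, in which Xbp1 is a transcription factor, raises the chaperones and the rest of this machinery. In the larva it serves tissues that secrete heavily, such as the salivary glands, the fat body and the midgut.

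The values are log2 ratios. Their direction is likely the mutant divided by the wild type, from the dyes and the convention of the software, so a value below 0 means less RNA in the mutant relative to the other genes on the array. The 4 arrays held between 1108 and 3513 values of 16416 probes, because the authors removed spots of low quality, and 1659 genes had a value in both extractions. The r between arrays over probes was 0.957 for extraction 1, 0.848 for extraction 2 and 0.647 to 0.809 for arrays of different extractions. For 80.8% of the tested genes extraction 2 rests on 1 array. In whole larvae, fewer cells of a type and less RNA per cell cannot be told apart. Tissue genes were measured for salivary glands (6 of 10 listed), fat body (7 of 11), midgut (24 of 34), muscle (10 of 15) and haemocytes (6 of 11). Of the haemocyte markers, *Hml*, *NimC1*, *Pxn* and *PPO1* gave no value, and *SPARC* and *Col4a1* are also made by the fat body.

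None of the 5 tested genes passed the threshold of a 2-fold change and an adjusted p below 0.05 (limma, Benjamini-Hochberg over all 1659 genes), against 6.63% of all tested genes. Their log2 ratios lay between -0.39 and -0.08, with a median of -0.26 beside 0.0086 for all genes tested. At an unadjusted p under 0.05 only *ERp60* stood, and 16.5% of all tested genes were lower at that level. The 95% interval of each of the 5 lay within a 2-fold change in both directions, as it did for 76.7% of all tested genes. That share is common among the tested genes, so it does not set these 5 apart. The intervals rest on n = 2 extractions and leave out the spread of the wild-type pool.

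**Figure D1:**
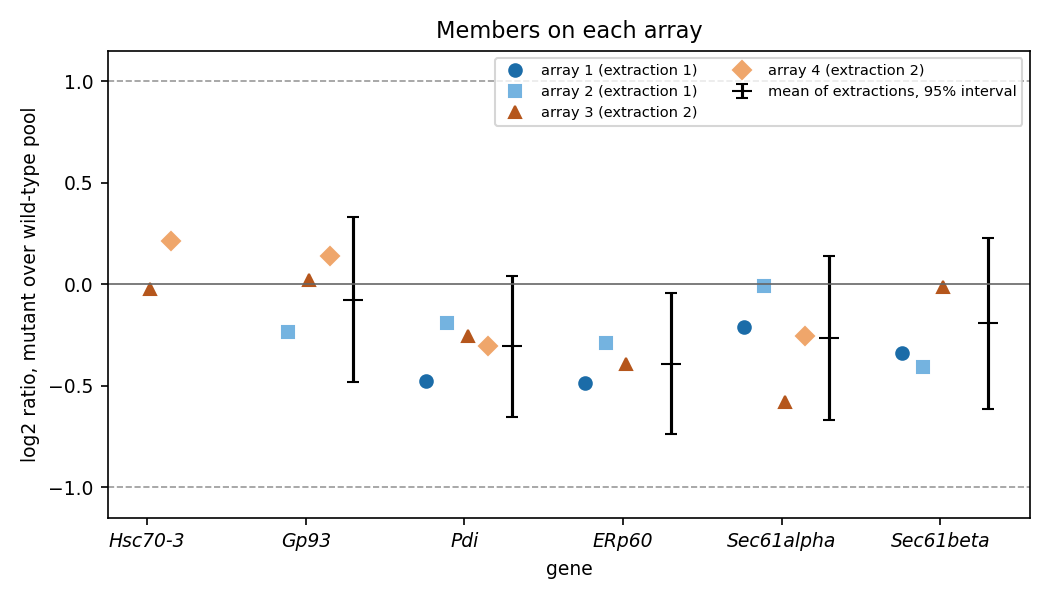
Log2 ratio (mutant over wild-type pool) of the 6 genes with a value on each array, with marker shape and colour for the array. Black bars give the mean of the 2 extractions with its 95% interval, and dashed lines mark a 2-fold change. *Pdi*, *ERp60*, *Sec61alpha* and *Sec61beta* were below 0 on every array that measured them, while *Hsc70-3* and *Gp93* lay on both sides of 0.

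The disulfide isomerases form and rearrange the disulfide bonds of folding proteins. *Pdi*, on chromosome arm 3L, had log2 ratios of -0.47 and -0.19 on arrays 1 and 2 and of -0.25 and -0.31 on arrays 3 and 4. All 4 values were below 0, and the 2 extractions, at -0.33 and -0.28, were close to each other. Its mean log2 ratio was -0.31 ± 0.13 (SE, n = 2), a level 0.809 times that of the wild type (95% interval 0.635 to 1.03), which did not pass (adjusted p = 0.178 in limma).

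*ERp60*, on arm 2R, encodes a second isomerase, of the kind that in mammals works with calreticulin and calnexin on glycoproteins. Its log2 ratios were -0.49 and -0.29 on arrays 1 and 2 and -0.39 on array 3, with no value on array 4. All 3 were below 0, and the means of the 2 extractions differed by 0.0069. Its mean log2 ratio of -0.39 ± 0.13 (SE, n = 2) was the lowest among the 5, a level 0.763 times that of the wild type with a 95% interval of 0.60 to 0.97. It did not pass after adjustment (adjusted p = 0.122 in limma), and 17.8% of all tested genes had a ratio as low or lower.

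The Sec61 channel is built of 3 subunits. *Sec61alpha*, on arm 2L, encodes the subunit that forms the pore, and its log2 ratios were -0.21 and -0.011 on arrays 1 and 2 and -0.58 and -0.25 on arrays 3 and 4. All 4 were below 0, but they ran from near 0 to the lowest value of any of the 6 genes. The mean log2 ratio was -0.26 ± 0.15 (SE, n = 2, adjusted p = 0.28 in limma), with a 95% interval from -0.67 to 0.14.

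*Sec61beta*, on arm 2R, encodes a small subunit beside the pore. It had log2 ratios of -0.34 and -0.41 on arrays 1 and 2 and of -0.013 on array 3, and none on array 4. Here extraction 1 was low and extraction 2 close to 0, the reverse of *Sec61alpha*, whose extraction 2 was the lower of the pair. The mean log2 ratio was -0.19 ± 0.15 (SE, n = 2, adjusted p = 0.424 in limma), with a 95% interval from -0.61 to 0.23.

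*Gp93*, on arm 3R, encodes the Hsp90 chaperone of the endoplasmic reticulum, called GRP94 in mammals. Its log2 ratio was -0.23 on array 2, 0.023 on array 3 and 0.14 on array 4, and array 1 gave none. Extraction 1 was below 0 and both arrays of extraction 2 above it, so the 2 extractions had opposite signs. The mean log2 ratio was -0.076 ± 0.15 (SE, n = 2, adjusted p = 0.743 in limma), and its 95% interval ran from -0.48 to 0.33.

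*Hsc70-3*, on chromosome X, encodes BiP, the Hsp70 chaperone of the endoplasmic reticulum and in many organisms the classic target of the unfolded protein response. It was measured in extraction 2 only, at -0.021 on array 3 and 0.21 on array 4, and was not tested. Both values were near or above 0, and extraction 1 gave no value.

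The 2 extractions of a gene differed by 0.0069 to 0.36 log2 units among the 5, with a median of 0.31, beside a median of 0.23 over all tested genes. *Pdi* and *ERp60* differed by less than that overall median, and *Gp93*, *Sec61alpha* and *Sec61beta* by more. A ratio below 0 in both extractions was found for 4 of the 5, against 37.7% of all tested genes, and a ratio below 0 on every array with a value for the same 4, against 34.7%. These are counts over 5 genes, chosen with earlier results of these data known, and were not tested.

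**Figure D2:**
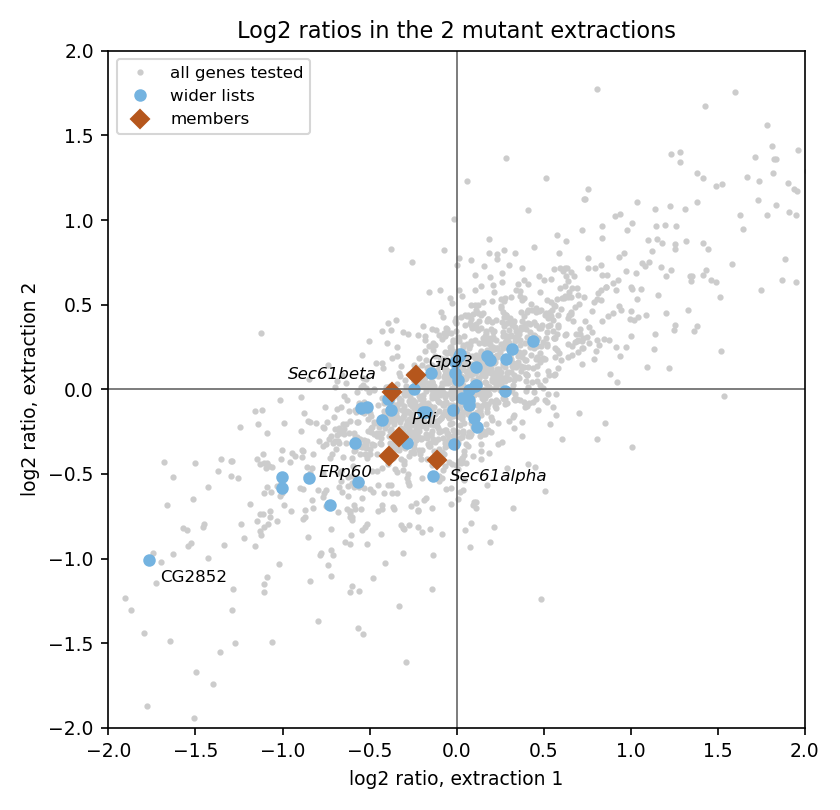
Log2 ratio in extraction 1 (horizontal) and extraction 2 (vertical) of every tested gene (grey), of the genes in the wider lists (blue circles) and of the 5 tested members (brown diamonds, named). The 49 genes beyond 2 log2 units on either axis are not drawn. *Pdi* and *ERp60* had nearly the same ratio in both extractions, *Gp93* had opposite signs in them, and *CG2852* lay far below 0 in both.

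The same machinery was followed in 104 listed genes, sorted into 12 lists by role. Of these genes 45 were tested, 19 had a value in 1 extraction only, 25 had a probe but no value and 15 had no probe in the annotation. Among the 45, 1 fell (*CG2852*), none rose and 44 did not pass, against 2.83% of all tested genes called lower and 3.80% called higher. The median log2 ratio of the 45 was -0.076, and -0.17 over 40 genes without array 2. Of the 45 genes 22 were below 0 in both extractions, against 37.7% of all tested genes. Above 0 in both were 11, against 665 of all 1659 tested genes. Each was read by 1 measured probe.

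The gene that fell was *CG2852*, on arm 2R, which encodes a cyclophilin related to the one of the endoplasmic reticulum in mammals. Cyclophilins turn the peptide bonds before prolines, a slow step of folding. Its log2 ratios were -2.34 and -1.18 on arrays 1 and 2 and -1.01 on array 3, all well below 0, with array 1 the lowest. The mean log2 ratio was -1.39 ± 0.22 (SE, n = 2), 2.61-fold lower in the mutant (adjusted p = 0.0425 in limma). The call was lost without array 2 (adjusted p = 0.079), with 1 probe per gene (adjusted p = 0.05) and with every probe tested on its own (adjusted p = 0.051). In each of the 11 alternatives that gave it a value the ratio was below 0, between -1.68 and -1.09.

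The other tested proline isomerase, *Fkbp14*, belongs to the FK506-binding family. It had log2 ratios of -1.32 and -0.68 on arrays 1 and 2 and -0.52 on array 3, all below 0, with a mean of -0.76 ± 0.17 (SE, n = 2, adjusted p = 0.0651 in limma). As for *CG2852*, array 1 gave the lowest value.

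All 6 tested genes of the list for disulfide isomerases and oxidation, *Pdi* and *ERp60* included, were below 0 in both extractions, against 37.7% of all tested genes. Their median log2 ratio was -0.32, and none passed. The lowest was *prtp*, on chromosome X, whose product is a protein of this compartment with thioredoxin domains that also serves as a mark for the engulfment of dying cells. Its log2 ratios were -0.84 and -0.61 on arrays 1 and 2 and -0.96 and -0.40 on arrays 3 and 4, all below 0. Its mean of -0.71 ± 0.13 (SE, n = 2) had an adjusted p of 0.0468 in limma but stayed under a 2-fold change, and 4.70% of all tested genes were lower at that adjusted p. No gene of the wider lists was higher at it, against 5.42% of all tested genes. *CG9302*, a gene of the same family, had a mean log2 ratio of -0.33 ± 0.17. *Ero1L*, listed here for oxidation, was above 0 at its only value, 0.46 on array 1, and was not tested.

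The translocon list, with the channel and the proteins bound to it, had 6 tested genes, *Sec61alpha* and *Sec61beta* among them. All 6 were below 0 in both extractions, against 37.7% of all tested genes, with a median log2 ratio of -0.26, and none passed. The remaining subunit of the channel, *Sec61gamma*, had log2 ratios of -1.24 and -0.46 on arrays 1 and 2 and of -0.71 and -0.34 on arrays 3 and 4. Its 4 values were spread widely below 0, and its mean of -0.69 ± 0.15 (SE, n = 2) did not pass (adjusted p = 0.06 in limma). The 95% intervals of the 3 subunits overlapped, and whether the subunits differ was not tested. *l(1)G0320*, whose product is related to the alpha subunit of the complex that SsRbeta belongs to, had a mean log2 ratio of -0.32 ± 0.16.

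The chaperone list beside *Gp93* held *Grp170*, an exchange factor that reloads BiP with ATP, at 0.12 ± 0.13 (SE, n = 2), and *P58IPK*, a co-chaperone of BiP, at -0.025 ± 0.14. Of these 3 tested genes none was below 0 in both extractions. Of 4 tested genes for glycoprotein folding 2 were below 0 in both extractions and none passed. The share below 0 in both was 37.7% over all tested genes. *GCS2alpha*, a subunit of the glucosidase that trims the sugar chain, had a mean log2 ratio of -0.30 ± 0.13, its partner subunit *GCS2beta* 0.13 ± 0.14, and *Uggt*, the sensor that sends unfolded glycoproteins back to the lectins, -0.073 ± 0.13.

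**Figure D3:**
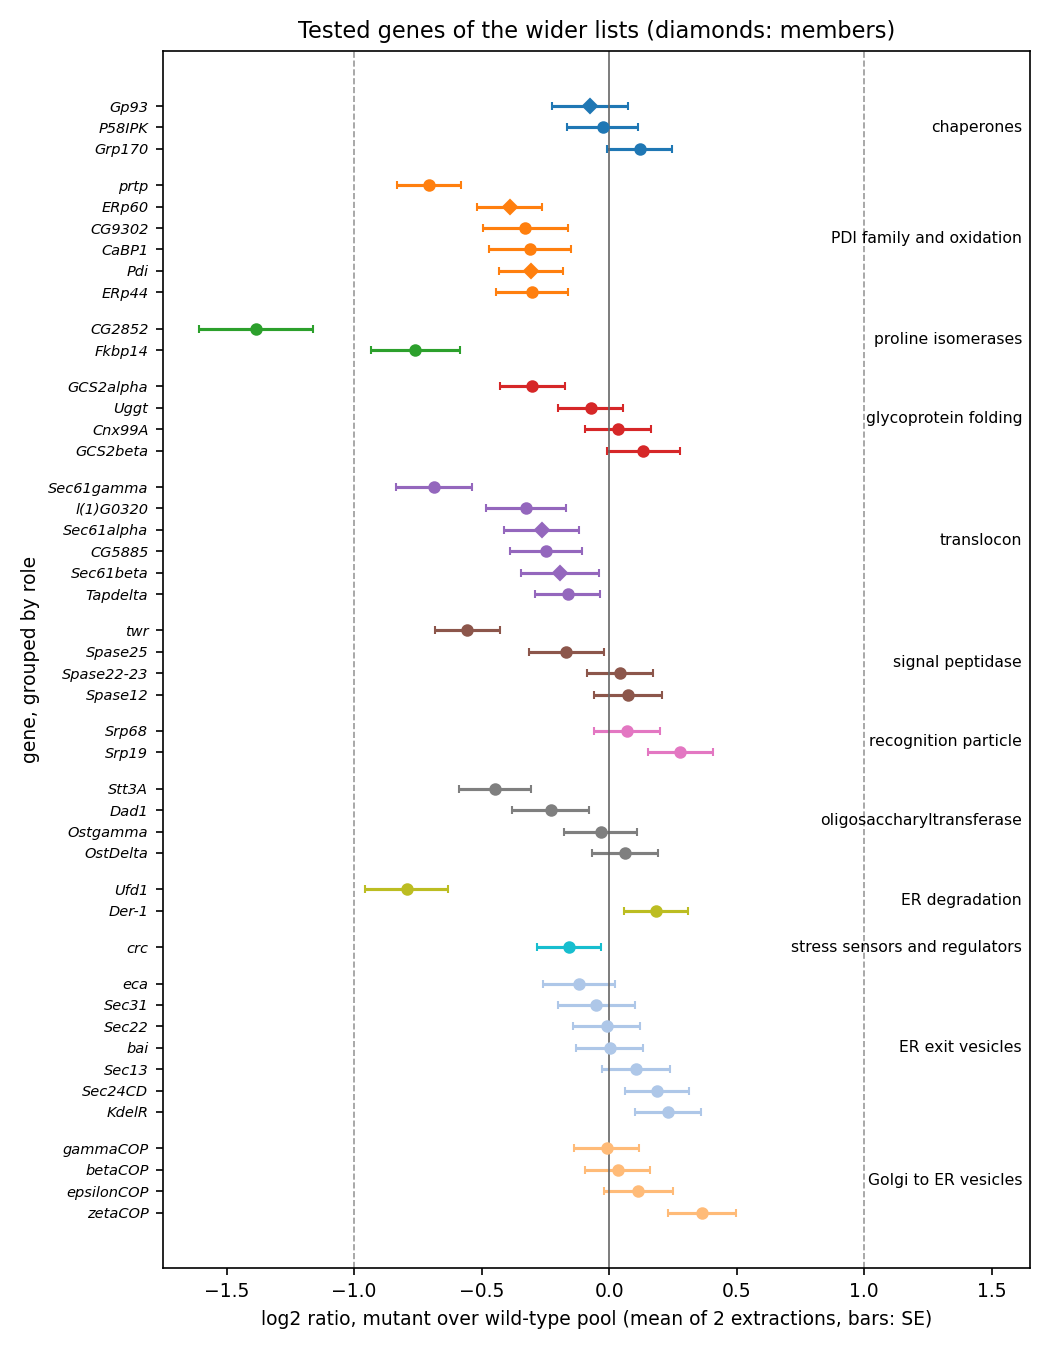
Mean log2 ratio (mutant over wild-type pool) of the 45 tested genes of the wider lists, with the SE as bars, ordered by role and within a role by value. Diamonds are *Gp93*, *Pdi*, *ERp60*, *Sec61alpha* and *Sec61beta*, dashed lines mark a 2-fold change, and *CG2852* at -1.39 was the only gene past it.

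The steps before and beside the channel gave no call. Among 4 genes of the signal peptidase, which cuts the signal sequence, *twr*, a catalytic subunit, had log2 ratios of -0.56 on array 1 and -0.55 on array 3 (mean -0.56 ± 0.13, SE, n = 2, adjusted p = 0.0651 in limma). *Spase25* had a mean of -0.17 ± 0.15, which was 0.049 without array 3 and -0.39 without array 4, and *Spase12* one of 0.076 ± 0.13. The 2 tested genes of the signal recognition particle, which brings ribosomes to the channel, were above 0 in both extractions, against 665 of all 1659 tested genes. They were *Srp19* at 0.28 ± 0.13 and *Srp68* at 0.07 ± 0.13. Of 4 subunits of the oligosaccharyltransferase, which attaches the sugar chain, *Stt3A*, the catalytic one, had the lowest mean log2 ratio (-0.45 ± 0.14, adjusted p = 0.117 in limma), beside -0.23 ± 0.15 for *Dad1* and 0.062 ± 0.13 for *OstDelta*. None of these 10 genes passed.

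Vesicle genes gave no call. None of the 7 tested genes of the vesicles that leave the endoplasmic reticulum, and none of the 4 of the vesicles that return to it, was below 0 in both extractions or passed the test. Below 0 in both were 626 of all 1659 tested genes. Of the 7 genes 3 were above 0 in both extractions, and of the 4 genes 3, against 665 of all 1659 tested genes. The medians of the 2 lists were 0.0018 and 0.074. *KdelR*, the receptor that returns escaped chaperones, was above 0 on all 4 arrays, from 0.12 to 0.33, with a mean log2 ratio of 0.23 ± 0.13 (SE, n = 2, adjusted p = 0.279 in limma). *Sec24CD*, a coat protein that binds cargo, was at 0.19 ± 0.13 and *eca*, of the p24 cargo receptors, at -0.12 ± 0.14. Among the coat proteins of the returning vesicles *zetaCOP* had 0.36 ± 0.13 (adjusted p = 0.145 in limma), *epsilonCOP* 0.12 ± 0.13 and *betaCOP* 0.033 ± 0.13.

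Of the stress sensors and regulators only *crc*, the fly homologue of ATF4, was tested, and its log2 ratios of -0.23, -0.12, -0.024 and -0.25 on arrays 1 to 4 gave a mean of -0.16 ± 0.13 (SE, n = 2, adjusted p = 0.428 in limma). The other two regulators with a value were named after their values were seen. *PPP1R15*, which reverses the block of translation under stress, was measured on arrays 1 and 2 at 0.49 and 0.52, and *Atf6*, a membrane-bound transcription factor of the response, on array 1 at 0.084. Both were seen in extraction 1 only and were not tested. In the degradation list *Ufd1*, a cofactor of the segregase that pulls proteins out of the membrane, had log2 ratios of -1.005 on array 1 and -0.58 on array 3 (mean -0.79 ± 0.16, adjusted p = 0.0562 in limma), and the channel protein *Der-1* had a mean of 0.18 ± 0.13. Neither passed.

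The cytosol has chaperones of its own, and 9 of 14 listed there were tested. None passed, 5 were below 0 and 4 above, and their median log2 ratio was -0.022, beside -0.26 for the 5 genes of the endoplasmic reticulum. The medians leave out genes with a value in 1 extraction only. In the cytosolic list these were *Stip1* at -0.78 and *STUB1* at -0.45 in extraction 1. In extraction 2 they were *Hsp110* at -0.40 and *CCT4* at -0.12. All of them were below 0, while *Hsc70-3* was at 0.096 in extraction 2. *Hsc70-4*, the constitutive cytosolic Hsp70, had a mean log2 ratio of 0.42 ± 0.13 (SE, n = 2, adjusted p = 0.113 in limma) and *CCT7*, of the ring-shaped chaperonin, -0.43 ± 0.17 (adjusted p = 0.161). Whether the 2 sets differ was not tested.

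Genes of the tissues that secrete heavily were called in both directions, beside 2.83% of all tested genes called lower and 3.80% called higher. Of 5 tested salivary glue genes 1 fell, *Sgs5bis*, 8.49-fold lower, and *Sgs5*, at a log2 ratio of -2.78 ± 0.63, did not pass. Of the 5, 3 were below 0 in both extractions and 2 above 0 in both, against 626 and 665 of all 1659 tested genes. Of 7 fat body genes 3 fell, among them *Lsp2*, 4.31-fold lower, and *Tsf1* rose 2.96-fold. Of 23 midgut genes 5 rose, among them *Amy-d*, 3.91-fold, and 2 fell, among them *Jon66Cii*, 3.61-fold lower (adjusted p from 0.0205 to 0.0401 for these 5 named calls, limma). None of 7 muscle genes passed, with *Prm* at 0.54 ± 0.14 and *Mlc1* at 0.46 ± 0.17 the furthest from 0. The median of the 7 was 0.093, with 3 below 0 in both extractions and 2 above 0 in both. None of 3 haemocyte genes passed, with *SPARC* at 0.53 ± 0.17 and *Col4a1* at 0.41 ± 0.13. The part of tissue content in the ratios of the endoplasmic reticulum genes was not tested.

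Over the 267 genes outside the 12 lists by role with a value on all 4 arrays, *Atg8a*, *CG4390* and *Tctp* came closest to the mean profile of the 6 measured members, with root mean square differences of 0.072, 0.091 and 0.091 log2 units. This is a likeness over 4 arrays of 2 mutant RNAs, and the mean profile takes in different genes on different arrays, so it is a description only.

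The means of the 5 tested members stayed below 0 in each alternative that gave them a value. They ranged from -0.44 to -0.34 for *ERp60*, -0.38 to -0.24 for *Pdi*, -0.34 to -0.18 for *Sec61alpha*, -0.25 to -0.18 for *Sec61beta* and -0.10 to -0.023 for *Gp93*. Alternatives that change only the probe choice, the variance prior or the threshold could not move these means, since each gene has 1 probe. With the 4 arrays taken as separate values, *Pdi* and *ERp60* had adjusted p-values of 0.0428 and 0.0424 in limma, without reaching a 2-fold change. In that setting 13.3% of all tested genes were lower at the same level, and it counts 4 samples where there were only 2 mutant RNAs. Over the other alternatives their adjusted p-values reached 0.467 and 0.162.

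**Figure D4:**
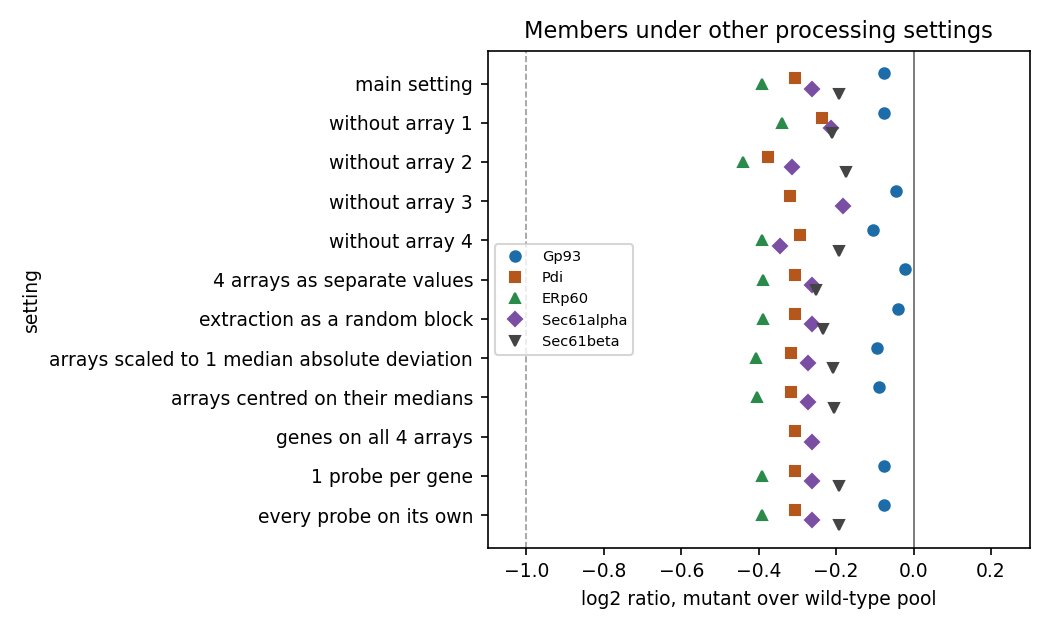
Mean log2 ratio (mutant over wild-type pool) of the 5 tested members under the main setting and 11 alternatives, 1 row for each. Points are left out where a gene lost its value in an extraction, the solid line marks 0 and the dashed line a 2-fold fall. Every point lies between -0.44 and 0.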

How the data were processed

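The deposited values are log2 ratios. Per the methods, the authors read the slides with GenePix, left out spots of poor quality, and applied normexp background correction, OLIN normalisation within each array and the mad method of OLIN between arrays, with limma for the model. For OLIN and limma no version was given in the sources used here. The base and the direction of the ratio are not written in the file, and were taken from the software's convention and the dyes in the labels. No dye swap was made. Scanner files were not used here.

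Probes were joined to genes by the platform annotation (13164 with 1 gene, 101 with several, 3151 with none), and current symbols came from a gene table of assembly Release 6, matched by gene identifier (12533 probes), accession (120) or symbol (21), while 490 kept the older symbol. That table served only for names and chromosome arms. Probes of a gene were averaged per array, then the 2 arrays of an extraction, which hold the same amplified RNA. An intercept was fitted to the 2 extraction means with limma 3.58.1 in R 4.3.3 over 1659 genes, and a call needed an adjusted p under 0.05 and at least a 2-fold change. The SE and the 95% interval are limma's moderated ones (median SE 0.138). The only control is the wild-type pool, whose own spread does not enter the test of the ratio against 0. The 2 extractions limit the precision, since arrays of the same amplified RNA add no replicate. The steps were tested on simulated data with changes larger than that of any member, which does not show how they work on changes as small. Tables were made with Python 3.11.15, pandas 2.3.3 and NumPy 2.4.6.

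The members and the lists were chosen with earlier results of these data known. All 9 members were named, with every called gene and up to 3 largest ratios in each list by role, up to 2 in each comparison list, and the 3 closest profiles. *PPP1R15*, *Atf6*, *Ero1L*, *Stip1*, *STUB1*, *Hsp110* and *CCT4* fall outside this rule and were chosen after their values were seen. No sequences were used here.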

Additional observations from a re-analysis of the deposited data

How the results depend on the processing

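None of the 13 alternatives called a tested member. Over all genes 110 were called, and leaving out 1 array gave 0 to 123 calls (0 of 358 genes without array 3, 55 without array 2), genes on all 4 arrays gave 49, and the adjusted p alone gave 168. Among the genes of the wider lists 1 was called, and leaving out 1 array gave 0 to 1, genes on all 4 arrays 0, 1 probe per gene 0, every probe on its own 0, and the adjusted p alone 2, which adds *prtp*. With every probe on its own 70.8% of calls were higher in the mutant, against 57.3% in the main setting. The median log2 ratio of the members was -0.26 and ranged from -0.35 to -0.18 when 1 array was left out. The lowest was over 4 members (without array 2) and the highest over 3 (without array 3). The range therefore also reflects which genes were left. That of the wider lists was -0.076, ranged from -0.17 to -0.054 when 1 array was left out, and was -0.094 with arrays scaled to 1 median absolute deviation, -0.091 with arrays centred and -0.16 over genes on all 4 arrays. The sign turned for *Spase25* without array 3 (0.049) and for *betaCOP* without array 4 (-0.012), and with 1 array left out these genes ranged from -0.39 to 0.049 and from -0.012 to 0.079. Of 372 pairs of a named gene and an alternative, 366 kept direction and side of the threshold. Only *CG2852* among the 33 genes in these pairs was called in the main setting. Settings that change only the probe choice, the variance prior or the threshold leave the ratio of a gene with 1 measured probe as it was. The count of 366 is therefore no measure of robustness. The cause of the changes between settings was not tested, apart from fewer genes or arrays where these were left out. No paired analysis was possible because the mutant is the only group with arrays of its own. Hybridisation to 2 arrays per RNA, with many spots removed, limits every value.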
